A study of Rattus norvegicus with 6 samples.

Results

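The genes described here are desmin and 9 genes of the smooth muscle contractile apparatus, namely Des, Acta2, Tagln, Myl9, Cnn1, Actg2, Tpm1, Tpm2, Cald1 and Mylk, which are 10 of the 18930 rows of the count table. They were chosen from the measured values of the same treated against control contrast, in which Des had one of the largest rises, so their values in it, and the calls of the fit over all genes where these are counted, are a description and support nothing. RNA was sequenced from NRK-52E, a line of rat kidney tubular epithelial cells labelled as wild type. The STZ group received 10 mM of streptozotocin, an alkylating nitrosourea attached to a glucose unit, for 24 h before RNA extraction. The Control group received no streptozotocin but vehicle, as the authors state. Each group held 3 samples, Control replicates 1 to 3 and STZ replicates 1 to 3. The labels do not say whether they were separate cultures of this one line, so the spread between them may be technical. Totals ranged from 10430924 to 12737131 reads in Control and from 11658253 to 15191349 reads in STZ, and 11870 rows passed a filter on low counts.

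Desmin is the intermediate filament protein of muscle cells, where it ties the contractile filaments to each other and to the membrane. In smooth muscle, force comes from actin filaments sliding along myosin, and it is switched on when myosin light chain kinase phosphorylates the regulatory light chain. Tropomyosins, calponin and caldesmon lie along the actin filament and restrain or steady it, and transgelin cross-links it. Many of these genes carry a CArG box, the DNA site of serum response factor (SRF), whose activity rises when its myocardin family partners join it. Epithelial cells normally make non-muscle relatives of the same proteins, and some smooth muscle genes can be turned on in cultured epithelium.

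The promoters of 3 of these genes are printed to show how differently the starts of genes of this group read. Each is the 200 bases before the RefSeq start site, 5′ to 3′ on the strand of the gene, in rat assembly GRCr8. The Des piece lies at chr9:84299426-84299625 on the plus strand, the Acta2 piece at chr1:241172504-241172703 on the minus strand and the Tpm2 piece at chr5:62575727-62575926 on the minus strand. Capitals mark an E-box (CANNTG), a TATA box (TATAAA or TATATA) or a stretch that is 1 letter off a CArG box.
Des: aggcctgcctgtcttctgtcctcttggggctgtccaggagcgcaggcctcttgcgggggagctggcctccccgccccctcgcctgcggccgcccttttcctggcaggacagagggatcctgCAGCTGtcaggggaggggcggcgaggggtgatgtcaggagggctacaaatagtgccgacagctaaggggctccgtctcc
Acta2: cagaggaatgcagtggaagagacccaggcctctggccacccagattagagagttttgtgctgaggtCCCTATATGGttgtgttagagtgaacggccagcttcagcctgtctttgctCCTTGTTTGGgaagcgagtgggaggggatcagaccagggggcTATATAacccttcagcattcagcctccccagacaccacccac
Tpm2: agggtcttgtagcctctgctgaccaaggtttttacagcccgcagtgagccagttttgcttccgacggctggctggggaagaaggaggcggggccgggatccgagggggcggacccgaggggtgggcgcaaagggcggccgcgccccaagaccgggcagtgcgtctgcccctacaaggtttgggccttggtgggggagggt
In the Des piece the capitals are the E-box CAGCTG, which begins 79 bases before the start. In the Acta2 piece they are the near CArG boxes CCCTATATGG and CCTTGTTTGG, which begin 134 and 84 bases before the start, and the TATA box 42 bases before it. The Tpm2 piece holds none of the motifs searched.

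Promoters of 8 of the 10 genes were matched by symbol, and those of Tagln and Myl9 were not. The 8 genes had 9 windows, because Cald1 has an additional start site. A gene was counted if any of its windows held the motif, while the shares of all promoters count single windows. In the window from 250 bases before to 50 bases after the start, read on both strands, 6 of the 8 held an E-box and 3 of the 8 a TATA box, against 72.1% and 17.8% of all 33469 rat promoters in the RefSeq table. A complete CArG box stood in 0 of the 8 and in 1.64% of all promoters. Allowing 1 wrong letter, 3 of the 8, namely Acta2, Tpm1 and Cald1, held one, as did 20.1% of all promoters. In Tpm1 the near CArG box CCATATATAG overlaps the TATA box, and another, CCAAAAAAGT, begins 55 bases before the start. These counts describe letters in short windows, and a window without the letters says nothing about whether SRF acts on the gene. All values that follow are read counts scaled to a common library size (normalised counts), given as mean ± SD with n = 3 a group, and log2 fold changes of STZ against Control with their standard error (SE) from edgeR.

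Des was the member with the largest difference. Its normalised counts were 37.5, 32.8 and 34.9 in Control replicates 1 to 3 and 213, 241 and 213 in STZ replicates 1 to 3. Every STZ sample lay far above every Control sample, and the lowest STZ value was 5.66 times the highest Control value. The means were 35.1 ± 2.37 and 222 ± 16.5, a 6.29-fold difference and a log2 fold change of 2.65 (SE 0.14). By log2 fold change Des ranked 17 among all 11870 genes tested. Among genes with a symbol, past both thresholds, with non-overlapping groups and at least 50 normalised counts on average, it ranked 3. Svop led these with 3.23 and Pinlyp followed with 2.89, and Cd80 with 2.58 came next after Des. The level was low in absolute terms, since the values rest on 29 to 36 reads in Control and 223 to 256 reads in STZ. The cultures were measured in bulk, so more cells with a transcript and more of it in each cell cannot be told apart.

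Tagln encodes transgelin, an actin-binding protein that is one of the early markers of smooth muscle. Its normalised counts were 593, 623 and 706 in Control and 1344, 1367 and 1298 in STZ. The groups were well apart, with means of 640 ± 58.6 and 1336 ± 35.0 and a log2 fold change of 1.05 (SE 0.05).

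Tpm2 and Cald1, genes for an actin-covering tropomyosin and for caldesmon, stood higher in STZ by somewhat less. Tpm2 had 2840, 3095 and 3203 normalised counts in Control and 5590, 5484 and 5773 in STZ. No STZ sample came near a Control sample, the means were 3046 ± 187 and 5615 ± 146, and the log2 fold change was 0.88 (SE 0.04). Cald1 had 4649, 4743 and 4862 in Control and 8281, 8140 and 8386 in STZ. Within each group its samples differed little, with means of 4751 ± 107 and 8269 ± 123 and a log2 fold change of 0.80 (SE 0.04). Cald1 also makes a non-muscle form of caldesmon and Tpm1 and Tpm2 make muscle and non-muscle forms, and counts per gene do not tell these forms apart.

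Acta2, the smooth muscle actin gene most used as a marker of myofibroblasts, did not share that direction. Its normalised counts were 609, 650 and 711 in Control and 574, 585 and 549 in STZ. The groups did not overlap, but Control replicate 1 lay close to the STZ samples. The means were 656 ± 51.1 and 569 ± 18.4 and the log2 fold change was -0.21 (SE 0.06). Without Control replicate 3, the highest sample, it was -0.15 and no longer called in the fit over all genes. Tpm1, the other tropomyosin gene of the group, had 16360, 16209 and 16324 normalised counts in Control and 14724, 14244 and 14405 in STZ. All STZ samples were below all Control samples by a small margin, with means of 16297 ± 79.1 and 14458 ± 244 and a log2 fold change of -0.17 (SE 0.03).

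**Figure D1:**
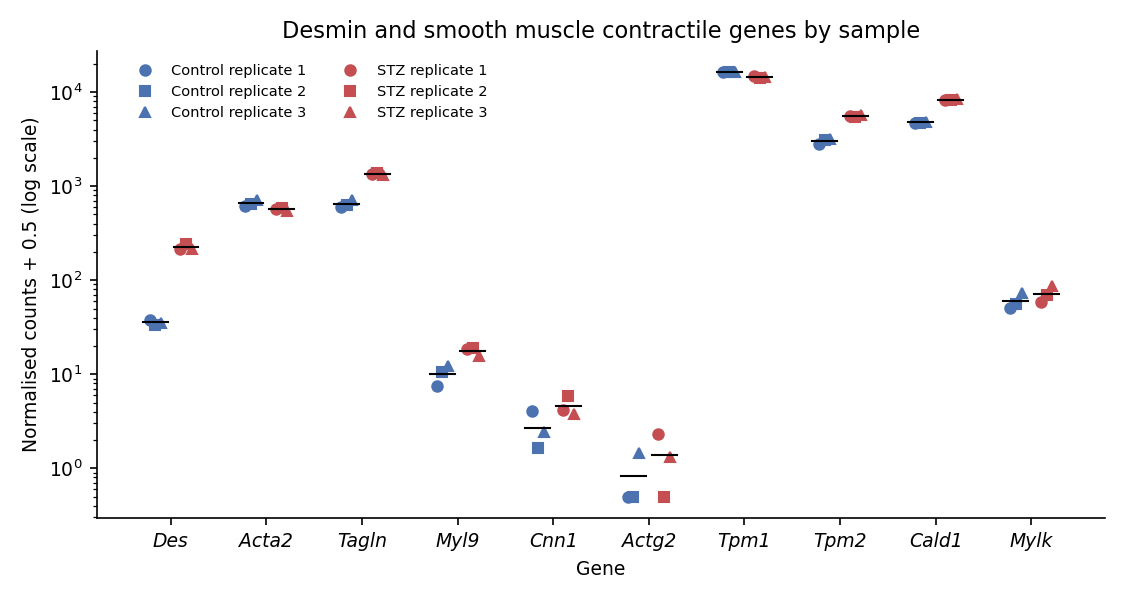
Normalised counts plus 0.5 on a log axis for each of the 10 genes, with 1 point a sample, blue for Control and red for STZ, and a black line at the group mean. Des shows the widest gap (35.1 against 222 on average), Tagln, Tpm2 and Cald1 are also higher in STZ, Acta2 and Tpm1 are slightly lower, and Cnn1 and Actg2 lie at a few reads.

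The remaining 4 genes had lower counts or overlapping groups. Myl9, the regulatory light chain of smooth muscle myosin, had 6, 9 and 12 reads in Control and 20, 17 and 18 in STZ. The groups did not overlap, with normalised means of 9.63 ± 2.35 and 17.1 ± 1.91 and a log2 fold change of 0.80 (SE 0.35), but it was not among the genes called. Of its samples, 2 in Control and 3 in STZ were above the level that the filter asked of 3 samples, so it entered the test through the STZ group. Mylk encodes myosin light chain kinase, and its normalised counts were 50.5, 55.5 and 72.8 in Control and 58.8, 69.2 and 85.5 in STZ. These groups overlapped, the means were 59.6 ± 11.7 and 71.2 ± 13.5, and the log2 fold change was 0.25 (SE 0.17), not called. With a sample left out it ranged from 0.08 (without STZ replicate 3) to 0.43 (without Control replicate 3), so its size rests on single samples.

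Cnn1, the gene for smooth muscle calponin, had 3, 1 and 2 reads in Control and 4, 5 and 4 in STZ and was not tested. Per sequenced read the summed counts of 6 and 13 gave a ratio of 1.81, with a 95% exact interval for counting error alone of 0.642 to 5.81, so no difference was detectable at this depth. Actg2, the enteric smooth muscle actin gene, had 0, 0 and 1 reads in Control and 2, 0 and 1 in STZ. Each sample was below a floor of 3 counts, so no fold is given.

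Of the 10 genes, 8 passed the filter. At an adjusted p under 0.05, 4 were called higher in STZ (Des, Tagln, Tpm2 and Cald1) and 2 lower (Acta2 and Tpm1), where 25.9% of all genes tested were called higher and 25.1% lower. Past the added threshold of an absolute log2 fold change over 1 were Des and Tagln, both higher, where the shares of all genes were 2.26% higher and 1.11% lower. All STZ samples were above all Control samples for 5 of the 8 and below them for 2, against 28.6% and 27.7% of all genes tested. Since the genes were picked from this contrast, nothing is read from these counts. Control replicate 3 was the highest Control sample for 6 of the 8 genes and Control replicate 1 the lowest for 6, and the part of this order in the differences was not tested.

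Set against their nearest relatives, the differences were uneven within each protein family. Shares of reads within a family were not corrected for transcript length, so each share is compared between samples and not with that of another gene. The 4 tropomyosin genes together gave 38094 ± 637 normalised counts in Control and 37511 ± 606 in STZ. Within this nearly level total, Tpm2 took 7.59%, 8.10% and 8.28% of the reads in Control and 14.8%, 14.9% and 15.2% in STZ. Tpm1 took 43.7%, 42.4% and 42.2% and then 38.9%, 38.7% and 38.0%. Tpm3, a tropomyosin gene active in most cells, went from a share of 13.7% ± 0.35 to 12.1% ± 0.25, and Tpm4 from 35.5% ± 0.19 to 34.4% ± 0.27. Tpm3 was lower in STZ by a log2 fold change of -0.21 (adjusted p = 1.9e-05), and Tpm4 had -0.07 (adjusted p = 0.0974). These adjusted p-values, and all that follow, are from edgeR's quasi-likelihood test over all genes with Benjamini-Hochberg adjustment.

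**Figure D2:**
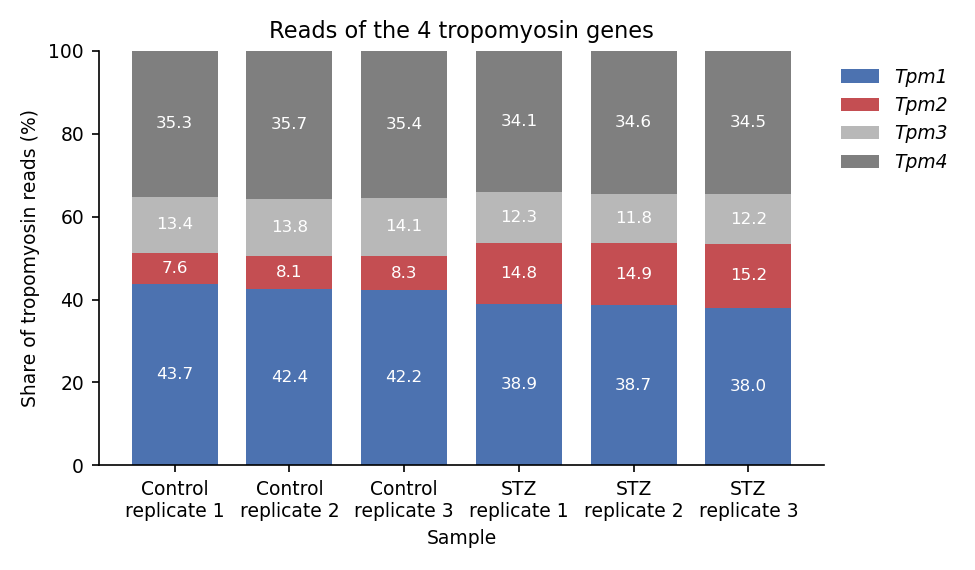
Share of the reads of 4 tropomyosin genes, in percent and not corrected for length, as 1 stacked bar a sample with each share printed in it. The Tpm2 segment is 7.59% to 8.28% in Control and 14.8% to 15.2% in STZ, while the Tpm1 segment is smaller in every STZ sample.

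In the transgelin pair, Tagln made up 4.04% ± 0.39 of the reads in Control and 7.60% ± 0.11 in STZ, the rest being Tagln2, its widely expressed relative. Tagln2 itself had a log2 fold change of 0.09 (adjusted p = 0.0193), a call lost under 2 other library scalings and without STZ replicate 1 (0.09) or 2 (0.09). Among the actins, Acta2 went from 1.57% ± 0.04 of the actin reads to 1.10% ± 0.046. The cytoplasmic actin genes rose, Actb by a log2 fold change of 0.29 (adjusted p = 1.5e-08) and Actg1 by 0.41 (adjusted p = 1.0e-12), and the actin total was 41678 ± 2576 in Control and 51533 ± 540 in STZ. Actin genes are nearly alike in their coding parts and the authors counted uniquely mapped reads alone, so the split of reads among them is uncertain.

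Of the calponins, Cnn2 rose by a log2 fold change of 0.51 (adjusted p = 2.4e-13) and Cnn3 by 0.15 (adjusted p = 0.00187), both being forms found outside smooth muscle. Myl12a, which supplies the regulatory light chain of non-muscle myosin, had 0.06 (adjusted p = 0.155), and Myl9 was 0.0618% of the reads of this pair in Control and 0.106% in STZ. Of type III intermediate filament reads, Des was 0.141% ± 0.0154 in Control and 0.959% ± 0.0778 in STZ. Vim, for vimentin, the filament of mesenchymal and cultured cells, held 99.6% and 98.9%.

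**Figure D3:**
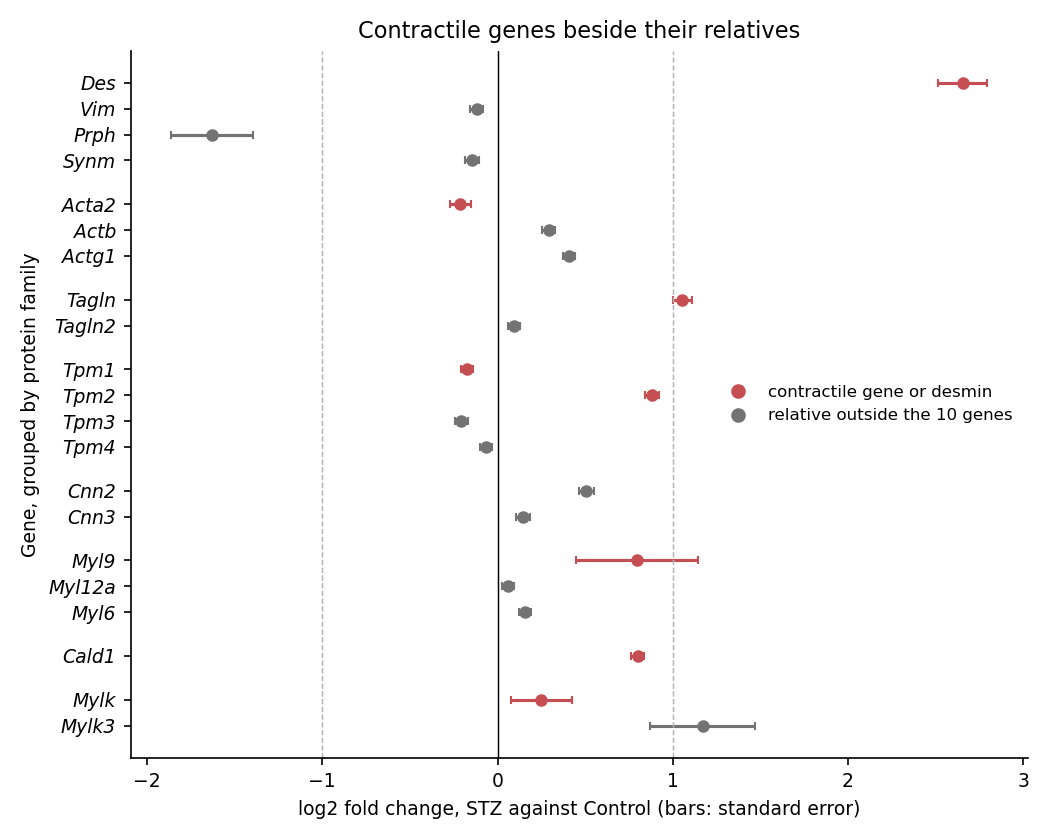
Log2 fold change of STZ against Control with its SE for each member that was tested (red) and for relatives (grey), grouped by protein family, with dashed lines at -1 and 1. Des (2.65) and Prph (-1.63) lie at opposite ends of one family, and Tpm2 (0.88) stands apart from Tpm1 (-0.17), Tpm3 (-0.21) and Tpm4 (-0.07).

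Other intermediate filament genes and the proteins that bind them went in both directions, with 7 of 13 tested genes higher and 5 lower at an adjusted p under 0.05 (25.9% and 25.1% of all genes tested), and the median log2 fold change was 0.09 (all genes tested: -0.01). Cryab, the small heat shock protein known as a chaperone of desmin, rose from 4976 ± 114 to 8415 ± 84.8 normalised counts (log2 fold change 0.76, adjusted p = 1.3e-21). Prph, for peripherin, a filament of peripheral neurons, fell from 56.2 ± 7.43 to 18.2 ± 4.17 (-1.63, adjusted p = 1.4e-07). Lmnb1, a lamin of the nuclear envelope, fell with a log2 fold change of -0.76 (adjusted p = 2.1e-18). The others called lower were Lmnb2, another lamin gene, with -0.67 (adjusted p = 2.9e-14), Synm, for the desmin-binding filament protein synemin, with -0.14 (adjusted p = 0.00238), and Vim. Vim was 24906 ± 1322 in Control and 22929 ± 301 in STZ (-0.12, adjusted p = 0.00524), and without Control replicate 3 it was not past the threshold (-0.08).

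Among 13 further smooth muscle genes that were tested, 8 were higher and 2 lower (25.9% and 25.1% of all genes tested), with a median log2 fold change of 0.32. Fhl1 and Fhl2, LIM domain proteins that sit on actin filaments and can enter the nucleus, passed both thresholds. Fhl1 rose from 626 ± 13.9 to 1279 ± 23.0 normalised counts (1.03, adjusted p = 7.4e-21) and Fhl2 from 71.3 ± 10.8 to 165 ± 15.8 (1.20, adjusted p = 3.7e-10). Csrp1, for a protein that links actin bundles, rose by 0.49 on the log2 scale (adjusted p = 1.4e-14), and Smtn, for smoothelin of contractile smooth muscle, by 0.43 (adjusted p = 3.1e-12).

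Myh11, the smooth muscle myosin heavy chain and the marker held to be most specific to that cell type, went the other way. It had 119, 89.4 and 99.98 normalised counts in Control and 65.1, 68.1 and 64.8 in STZ. The groups did not overlap, with means of 103 ± 14.7 and 66.0 ± 1.84 and a log2 fold change of -0.63 (adjusted p = 3.9e-04). The other gene called lower was Csrp2, a relative of Csrp1, with -0.36 (adjusted p = 1.4e-04). Lmod1, a leiomodin of smooth muscle, had 0 to 1 reads in any sample.

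The SRF and myocardin family regulators showed no common direction, with 4 of 11 tested genes higher, 4 lower (25.9% and 25.1% of all genes tested) and a median of 0.03. Myocd, for myocardin, which drives the smooth muscle programme, had 0 to 4 reads a sample and Abra, which stabilises actin in muscle, 2 to 9, so neither was tested. Srf itself had a log2 fold change of 0.12 (adjusted p = 0.0503), and of its partners Mrtfa had 0.03 (adjusted p = 0.692) and Mrtfb fell by 0.22 on the log2 scale (adjusted p = 0.00392). Srf passed the threshold under 4 of the other settings and without Control replicate 3 (0.15).

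Klf4, a repressor of contractile genes in smooth muscle and also a gene of growth arrest in epithelium, had 115, 113 and 140 normalised counts in Control and 228, 230 and 229 in STZ. All STZ samples were higher, with a log2 fold change of 0.89 (adjusted p = 1.9e-09). Gata6, a factor of vascular smooth muscle and of other lineages, fell with -0.35 (adjusted p = 4.1e-09). Of the SRF partners of the ternary complex type, Elk1 rose by 0.27 (adjusted p = 2.9e-04), Elk3 had -0.04 (adjusted p = 0.535) and Elk4 fell with -0.14 (adjusted p = 0.0140), a call lost without Control replicate 1 (-0.09) or STZ replicate 2 (-0.12). Of the myocyte enhancer factors, Mef2c fell with -0.55 (adjusted p = 4.4e-04). Mef2a (0.13, adjusted p = 0.0248) and Mef2d (0.15, adjusted p = 0.0268) were past the threshold by little, and each lost the call in DESeq2 and under 2 other scalings. Mef2a also lost it without Control replicate 2 (0.11) or 3 (0.13) or STZ replicate 2 (0.12) or 3 (0.12), and Mef2d without Control replicate 1 (0.11) or 2 (0.13) or STZ replicate 2 (0.10) or 3 (0.15).

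SRF target genes that build the actin cytoskeleton in most cells were higher in 9 of 15 and lower in 1 (25.9% and 25.1% of all genes tested), with a median of 0.16. Tes, for a focal adhesion protein, rose by 0.40 (adjusted p = 2.4e-11) and Wdr1, which helps take actin filaments apart, by 0.37 (adjusted p = 4.8e-11). The gene called lower was Lima1 (-0.09, adjusted p = 0.0299), and it was not past the threshold without Control replicate 1 (-0.08), STZ replicate 1 (-0.08) or STZ replicate 3 (-0.09).

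Of the 13 genes that set the phosphorylation of myosin light chain, 3 were higher and 6 lower (25.9% and 25.1% of all genes tested), with a median of -0.05. Mylk3, a kinase known from heart muscle, was past both thresholds with 12.1 ± 3.67 and 27.6 ± 3.43 normalised counts (1.17, adjusted p = 0.00110). These rest on 7, 11 and 16 reads in Control and 28, 24 and 38 in STZ. Control replicate 1 was below the level of the filter, so Mylk3 entered the test through the STZ group. Calm2, a gene for calmodulin, which switches on the kinase made from Mylk, rose by 0.40 (adjusted p = 1.4e-12), and Ppp1r12b, for a targeting subunit of myosin phosphatase, by 0.19 (adjusted p = 0.00163).

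**Figure D4:**
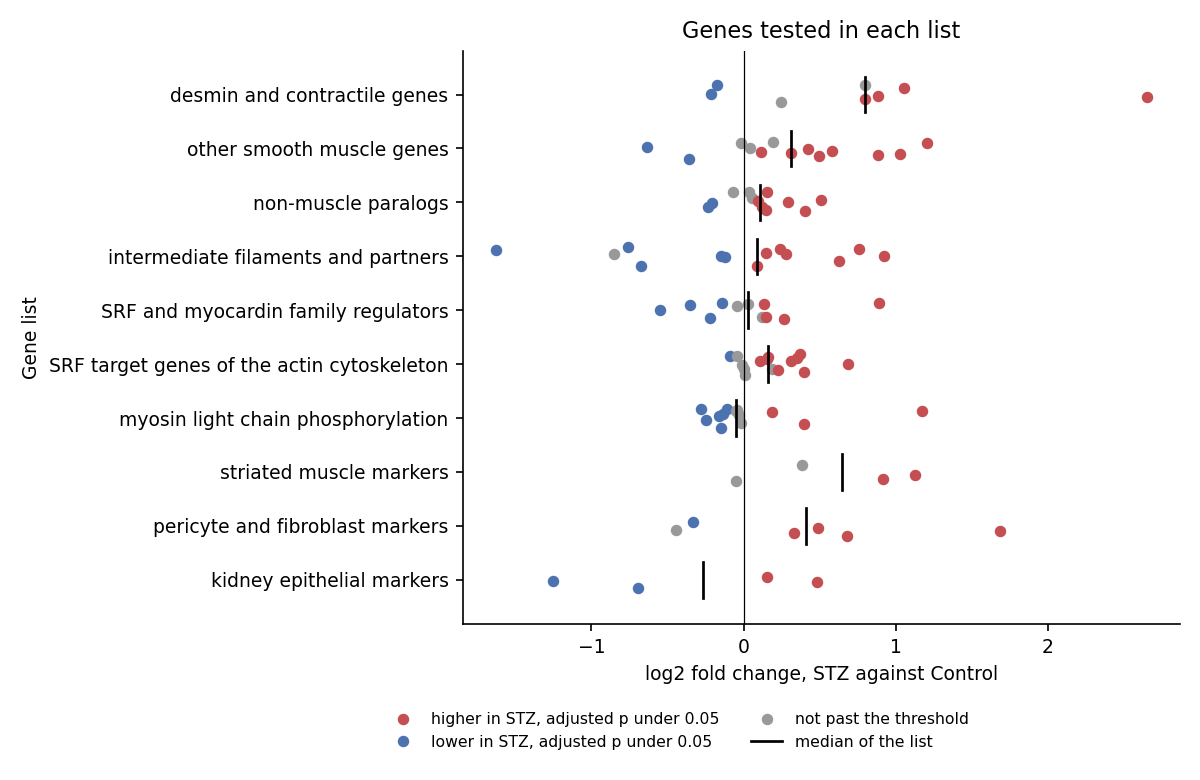
Log2 fold change of each tested gene of the desmin and contractile group and of 9 other lists, with red and blue points for genes higher and lower in STZ at an adjusted p under 0.05, grey for the others and a black line at the median. Of the tested genes, 4 regulators are higher and 4 lower, 9 SRF targets higher and 1 lower, and 8 other smooth muscle genes higher and 2 lower, where 25.9% of all genes are higher and 25.1% lower.

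Markers of other cells were read beside these values. Of 15 striated muscle markers in the table, 10 never exceeded 10 reads, and the defining genes Myod1 and Myog had 0 to 1 reads and Ckm 0 to 2. Their summed level was 13.2 to 15.8 CPM (counts scaled to the size of each library) in Control and 18.3 to 18.7 in STZ. Of the 4 tested, 2 were higher and 0 lower (25.9% and 25.1% of all genes tested). Tnnt2, cardiac troponin T, was past both thresholds with 19.4 ± 1.88 and 42.7 ± 1.73 normalised counts (1.12, adjusted p = 1.1e-04). Ryr1, the calcium channel of skeletal muscle, had 0.91 (adjusted p = 0.0287), which was lost in DESeq2, without Control replicate 3 (0.54) and without STZ replicate 3 (0.81). It had 10, 12 and 5 reads in Control and 19, 16 and 25 in STZ. Control replicate 3 was below the level of the filter, so Ryr1 too entered the test through the STZ group.

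Of 10 pericyte and fibroblast markers in the table, 6 were tested, of which 4 were higher and 1 lower (25.9% and 25.1% of all genes tested). The summed level of the 10 was 107 to 127 CPM in Control and 147 to 154 CPM in STZ. Notch3, a receptor of mural cells, rose from 82.4 ± 12.6 to 266 ± 16.6 normalised counts (1.68, adjusted p = 2.3e-16), and S100a4, a calcium-binding protein used as a fibroblast marker, by 0.49 (adjusted p = 1.1e-09). Cspg4, the NG2 proteoglycan of pericytes, rose by 0.68 (adjusted p = 0.00164) and Tbx18, a transcription factor of mural cells, by 0.33 (adjusted p = 2.4e-04). Of the defining genes, Pdgfrb fell with -0.33 (adjusted p = 0.00286), Pdgfra had 0 to 4 reads and Rgs5 1 to 6. The 18 further smooth muscle genes in the table summed to 995 to 1024 CPM in Control and 1242 to 1289 CPM in STZ. Smtn and Csrp1 gave the largest parts, with medians of 249 and 221 CPM in Control. Myh11 had a median of 8.09 CPM in Control, and 4 of the 18 genes never exceeded 10 reads. The part of pericytes, fibroblasts or smooth muscle cells in the Des and Tagln values was not tested.

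Of the markers that define epithelium, some were abundant and others near 0. The 11 kidney epithelial markers in the table summed to 1752 to 1822 CPM in Control and 2260 to 2268 CPM in STZ. Of the 4 tested, 2 were higher and 2 lower, where 25.9% of all genes tested were higher and 25.1% lower. Most of this sum was Krt8, a keratin of simple epithelia, which rose from 14297 ± 506 to 19971 ± 100.2 normalised counts (0.48, adjusted p = 1.8e-15). Tjp1, a tight junction scaffold, rose by 0.15 (adjusted p = 2.6e-04). The usual partner of Krt8, Krt18, had 0 to 3 reads. Cdh1, for E-cadherin, had 16 to 35 reads and a log2 fold change of -0.69 (adjusted p = 0.0296), a call lost in DESeq2 and without Control replicate 1 (-0.58), Control replicate 3 (-0.65), STZ replicate 1 (-0.72) or STZ replicate 3 (-0.44). Aqp1, the water channel of the proximal tubule, fell from 163 ± 45.8 to 67.6 ± 8.25 (-1.25, adjusted p = 9.4e-09). Epcam, Krt19 and Cldn1 were not analysed here.

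The genes next to Des in the RefSeq gene table of GRCr8 were compared with it. On one side, Dnpep, an aspartyl aminopeptidase gene, had a log2 fold change of 0.22 (adjusted p = 1.8e-05) and Dnajb2, a co-chaperone gene 5 places away, 0.42 (adjusted p = 1.8e-10). Between them Ptprn had 1 to 12 reads and Resp18 2 to 11, and neither was tested. On the other side, Speg, a kinase gene of striated muscle, rose from 215 ± 30.5 to 307 ± 46.7 normalised counts (0.50, adjusted p = 4.3e-05), and Gmppa, for a sugar nucleotide enzyme, had 0.04 (adjusted p = 0.651). The 4 other neighbours are long non-coding RNAs and were not analysed here. One of them, LOC102550477, overlaps Des, and since the strand setting of the counting was not given in the sources used here, its reads and those of Des may not be fully separated.

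The 5 genes closest to Des in pattern were found from the 6 log2 normalised counts of each gene, centred on its own mean, by the root mean square difference on the log2 scale. Cd80, a co-stimulatory ligand of T cells, was the nearest at 0.0759, with 172 normalised counts on average in Control and 1035 in STZ. Cdkn1a, for the cell cycle inhibitor p21, followed at 0.110, with 2883 and 16154. Pinlyp, for an inhibitor of phospholipase, stood at 0.158 and Mmp2, for a gelatinase, at 0.242. Axl, a receptor tyrosine kinase gene, stood at 0.255 on a few reads, with 2.90 and 16.1 normalised counts. All its Control samples were below the level of the filter, so Axl too entered the test through the STZ group. The log2 fold changes of these 5 genes, 2.58, 2.49, 2.89, 2.33 and 2.43, are close to that of Des by the way the genes were found.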

How the data were processed

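RNA libraries of NRK-52E cells (3 Control, 3 STZ) were made with a stranded mRNA kit. The authors aligned single-end reads with STAR 2.7.10a to Rnor6, the rat assembly, and used featureCounts for the reads with a unique hit. The values they deposited are these raw counts. Columns were assigned to samples by their names, and each row was used as deposited, including 2871 without a symbol.

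TMM scaling, filterByExpr (minimum count 10), dispersions and the quasi-likelihood test with Benjamini-Hochberg adjustment came from edgeR 4.0.16 (R 4.3.3) and were tested on simulated counts. A gene was called differentially expressed where its adjusted p was below 0.05 and its log2 fold change above 1 in size. A normalised count is the count divided by its TMM-scaled library size and multiplied by the mean of those sizes. The genes described and all lists were chosen with earlier results of these data known. Named are all 10 genes, from each list the 2 with the smallest p and those past both thresholds, all tested regulators, the 5 neighbours of Des on each side and the 5 genes closest to it in pattern. Family relatives, defining markers, the leading rises and genes of other lists making up called counts of 5 or fewer were named after their values were seen. A gene that the rule names is not reported here. Limits for low counts (95% intervals and a floor of 3 counts) cover counting error only. Promoters came from RefSeq (GRCr8). The near CArG search was added after the search for the complete box.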

Additional observations from a re-analysis of the deposited data

How the results depend on the processing

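Of 135 refits of the 8 tested members, 132 kept their direction and moved by less than the spread between replicates. The others were Tpm1, at -0.21 with library size only and -0.19 with upper quartile scaling, and Cald1, at 0.77 with library size only. The members called higher were 5 in place of 4 with the likelihood ratio test, the exact test and limma-voom, where Myl9 was also called. The members called lower were 1 to 2 when a sample was left out, the 1 being without Control replicate 3, where Acta2 was not called.

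There were 400 differentially expressed genes. They were 249 with at least 10 counts in every sample, 6046 by adjusted p alone and 403 to 462 with a sample left out. Library size only called 2664 genes higher and 3485 lower, and upper quartile scaling 2830 and 3252, against 3070 and 2976. SRF regulators called higher were 2 in place of 4 with library size only, upper quartile scaling and DESeq2, and 2 to 4 with a sample left out. SRF targets called lower were 0 to 1 and striated muscle markers called higher 1 to 3 with a sample left out, the latter 1 with DESeq2. Pericyte and fibroblast markers called lower were 2 in place of 1 with at least 10 counts in every sample, library size only, upper quartile scaling, the likelihood ratio test, the exact test and the replicate block, and 1 to 2 with a sample left out. Kidney epithelial markers called lower were 1 with DESeq2 and 1 to 2 with a sample left out. Of 1695 refits of 100 other genes, 64 lost and 34 gained a call and 0 reversed.

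The labels do not pair the samples, and deviations of same-numbered samples correlated at 0.0338, -0.0339 and 0.104 over 10341 genes, so the numbers are taken as names. With the replicate block the genes differentially expressed numbered 398, and the same members were called. Depth limits Cnn1, Actg2 and Myl9, each with at most 20 reads a sample.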
